A study of Rattus norvegicus with 6 samples.

Results

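The imprinted Dlk1-Dio3 locus carries one of the largest miRNA clusters of mammals, and 10 of its mature miRNAs were followed in exosomes (small vesicles released by cells) from rat serum. They were taken by name from the 763 mature miRNAs of the deposited table, and come from 9 hairpins, since both arms of miR-434 are among them. The IPC group held 3 libraries from male Sprague-Dawley rats of 250 to 280 g, adults of 9 to 10 weeks, whose left anterior descending coronary artery had been closed for 5 min and reopened for 5 min in 3 cycles under pentobarbital (ischemic preconditioning). The control group held 3 libraries from such rats bled in the same way, from the left ventricle, without preconditioning, and no sham operation is described for them. Whether each library stands for its own rat is not labelled, and the p-values rest on a spread between libraries that may be technical. Values of a group are listed with replicate 1 first, then 2 and 3.

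At this locus the paternal chromosome expresses the protein-coding genes Dlk1, Rtl1 and Dio3, and the maternal chromosome expresses long non-coding RNAs, snoRNAs and the miRNAs. Several miRNAs lie antisense to Rtl1, a retrotransposon-derived gene needed in the placenta and in fetal muscle, and a second group further along, known as the miR-379 cluster, is expressed mostly in the brain. The miRNAs are cut from long maternal transcripts, so neighbouring hairpins share a precursor.

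RefSeq places the locus on chromosome 6 of the rat assembly GRCr8, with 59 miRNA hairpins annotated between Dlk1 and Dio3. All 10 sequences below, named with the prefix rno- for rat that is left off elsewhere, are on the plus strand and were taken from RefSeq (GRCr8). They are given in the order of their hairpins from Dlk1 to Dio3, with the seed (bases 2 to 8, which pair with target mRNAs) in capitals, because the seed shows which members could share targets.
rno-miR-127-3p: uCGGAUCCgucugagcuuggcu
rno-miR-434-5p: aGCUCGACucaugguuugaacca
rno-miR-434-3p: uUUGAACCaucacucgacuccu
rno-miR-136-3p: cAUCAUCGucucaaaugagucu
rno-miR-379-5p: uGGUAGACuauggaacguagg
rno-miR-411-5p: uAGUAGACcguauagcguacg
rno-miR-382-5p: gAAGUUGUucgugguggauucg
rno-miR-134-5p: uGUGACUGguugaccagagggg
rno-miR-541-5p: aAGGGAUUcugauguuggucacacu
rno-miR-409a-3p: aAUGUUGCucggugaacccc

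The 10 seeds all differ, and none of them was found in another measured miRNA of the RefSeq table. The nearest are those of the neighbours miR-379-5p and miR-411-5p, which differ in the seed by G2A alone (miR-379-5p's base first, counted from 1 at the 5′ end). Over their 21 bases these neighbours differ at 7 positions. None of the 10 had another measured miRNA within 2 mismatches over the aligned bases, so reads could be assigned between these names. The hairpins of miR-127, miR-434 and miR-136 lie inside the Rtl1 gene, at places 10, 12 and 13 of the 59, and are called the Rtl1 side here. The hairpins of miR-379 and miR-411 (places 17 and 18), miR-382 and miR-134 (44 and 45), miR-541 (51) and miR-409a (53) are called the miR-379 side.

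The deposited values are normalised and not whole numbers, but whole read counts could be recovered from them. Recovered totals ran from 319285 to 762927 counts in IPC libraries and from 111048 to 152343 in controls, so the shallowest IPC library was deeper than the deepest control. Levels below are either recovered counts, which are not scaled to depth, or the deposited normalised values, which stand on a common library size of 265919. A second general feature is that control replicate 2 stands apart: over all 226 miRNAs that passed the abundance filter, 0 (0%) differed between the groups at an adjusted p below 0.05, whereas 38 (16.8%) did without that library (limma). At an unadjusted p below 0.05 there were 24 (10.6%) with all libraries, and 23 in limma-voom on the recovered counts, which also called 0 at the adjusted threshold. Marker miRNAs of other tissues varied between libraries. The 8 listed for muscle took 1.43%, 8.46% and 4.25% of counts in IPC libraries, against 0.285%, 1.83% and 0.217% in control libraries, with all 8 detected in each IPC library and 6, 8 and 7 of them in the controls. Control replicate 2 lay above IPC replicate 1 in muscle share, so the groups overlapped in share of counts. As CPM (counts scaled to effective library size), every IPC library lay above every control for muscle. The muscle values were 15320, 88223 and 37816 CPM in IPC libraries, against 3644, 13003 and 2422 CPM in control libraries. Those listed for platelets and leukocytes took 1.80%, 2.99% and 2.77% in IPC libraries, against 1.09%, 2.20% and 0.737% in control libraries. These shares again overlapped, but the CPM values did not. They were 19246, 31162 and 24640 CPM in IPC libraries, against 13908, 15604 and 8209 CPM in control libraries. Those listed for liver took 1.04%, 0.879% and 0.423% in IPC libraries, against 0.794%, 1.74% and 1.23% in control libraries. Their part in the results below was not tested.

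The members were rare in serum exosomes. Together they had 1383 counts in IPC libraries and 267 in controls. They took 0.0986%, 0.0647% and 0.0636% of all miRNA counts in IPC libraries, against 0.0306%, 0.0965% and 0.0663% in control libraries. The exact 95% binomial intervals ran from 0.0917% to 0.106% in IPC replicate 1 and from 0.0212% to 0.0428% in control replicate 1 (counting error only, here and below, since the reads carry no molecular identifiers). The groups overlapped, at 0.0756% ± 0.0199 in IPC libraries and 0.0645% ± 0.0330 in control libraries (SD, n = 3 each). The difference of 0.0112 percentage points was smaller than either SD, and it was -0.00577 when control replicate 1 was left out, -0.000322 when IPC replicate 1 was, and 0.0272 when control replicate 2 was. Over all 103 measured miRNAs of the locus it was 0.00444, since the other 93 averaged less after IPC, at 0.0249% ± 0.00572 against 0.0316% ± 0.00976 in control libraries (SD, n = 3 each), a difference smaller than the control SD. In IPC replicate 1, where the members' share was the highest of the IPC libraries, the muscle share was the lowest of them. Among controls it went the other way, as control replicate 2 had the highest of both shares. This contrast depended on the scale. As CPM, control replicate 3 was the highest control for the members, at 739, and the lowest for muscle, at 2422. Control replicate 2 was then at 684 for the members and 13003 for muscle, and control replicate 1 at 391 and 3644. IPC replicate 1 kept its place among IPC libraries on this scale, at 1054 and 15320. A link between these shares was not tested.

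By mean level, miR-134-5p and miR-127-3p were the most abundant members, at ranks 137 and 141 of the 480 miRNAs with a count. miR-434-3p followed at 179 and miR-382-5p at 199, then miR-541-5p, miR-379-5p, miR-409a-3p and miR-434-5p at ranks from 208 to 243, and miR-136-3p and miR-411-5p at 299 and 326. These ranks compare reads of different miRNAs and carry the ligation bias of small RNA libraries. The order was not the same in every library: miR-134-5p had the most counts of the members in 4 libraries, and miR-127-3p in IPC replicate 1 and control replicate 3.

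**Figure D1:**
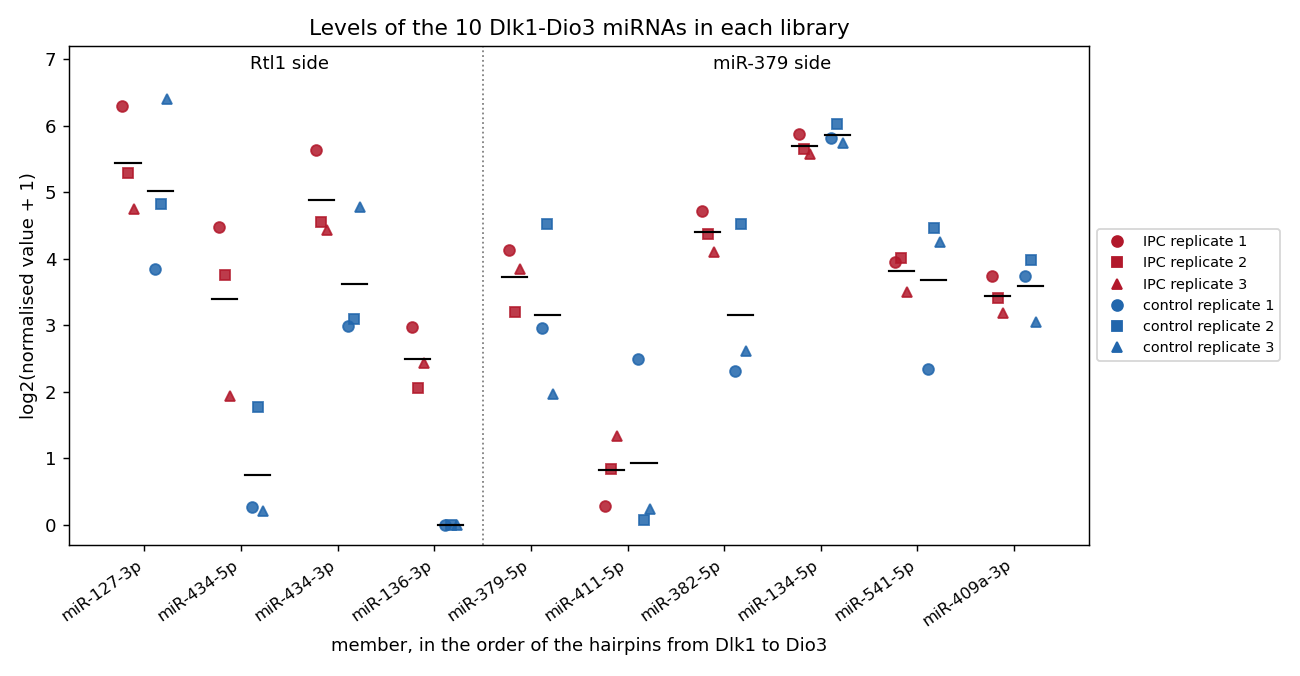
Log2(normalised value + 1) of the 10 members in each of the 6 libraries (points), with the mean of each group of 3 as a black line, in the order of the hairpins from Dlk1 to Dio3. miR-134-5p sits between 46.6 and 64.3 normalised counts in all 6 libraries, while miR-136-3p is at 0 in the 3 controls. A library without a count of miR-434-5p or miR-411-5p lies slightly above 0 because the deposited adjustment moves a count of 0 upward in shallow libraries.

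Of the 10 members, 7 passed the abundance filter (34.9 CPM or more in 3 or more libraries, and a total of 15 counts or more, where CPM is the count scaled to a common effective library size) and were tested with the whole table. None of the 7 passed at an adjusted p below 0.05, against 0% of all 226 tested miRNAs, and 0 of 7 had an unadjusted p below 0.05, against 10.6% (limma with Benjamini-Hochberg adjustment; limma-voom also gave 0 of 7 at both). Log2 fold changes were positive for 5 of 7 members and for 62.8% of all tested miRNAs, and their median was 0.42 against 0.38 over all tested miRNAs. The sign depended on the measure for 2 of the 5: scaled ratios of summed counts were above 1 for 3 of the 7, miR-127-3p, miR-434-3p and miR-382-5p, but 0.957 for miR-379-5p and 0.839 for miR-541-5p. The pseudocount of 1 in log2(value + 1) shrinks the fold changes of rare miRNAs.

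On the Rtl1 side, miR-127-3p is fully complementary to the Rtl1 mRNA and in the mouse guides its cleavage. It was at 77.9, 38.0 and 25.8 normalised counts in IPC libraries, against 13.4, 27.3 and 83.3 in control libraries. The highest library was thus a control, and the controls spread 6.24-fold against 3.02-fold after IPC. The log2 fold change was 0.42 (SE 0.85, 95% interval -1.44 to 2.28; limma, adjusted p = 0.854). It changed sign with the libraries used, from -0.17 without control replicate 1 to 1.11 without control replicate 3.

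miR-434-3p, from the next member hairpin, was at 48.8, 22.5 and 20.7 normalised counts in IPC libraries, against 6.95, 7.52 and 26.4 in control libraries. Control replicate 3 lay inside the range of the IPC libraries, and the other controls lay below it. The log2 fold change of 1.26 (SE 0.78, 95% interval -0.47 to 2.98) did not pass (limma, unadjusted p = 0.137, adjusted p = 0.535). Without control replicate 3 it was 1.83 at an unadjusted p = 0.0284, where 5.31% of tested miRNAs had an unadjusted p below 0.05, and the adjusted p was 0.857. This and the next member are the arms of one hairpin, shown here because both arms left reads in serum, with miR-434-5p and then miR-434-3p in capitals (RefSeq, GRCr8, chromosome 6, plus strand).
miR-434 hairpin: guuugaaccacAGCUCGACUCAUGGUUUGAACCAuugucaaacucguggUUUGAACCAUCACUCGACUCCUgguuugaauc

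miR-434-5p lay below the abundance filter. It had 56, 30 and 4 recovered counts in IPC libraries, against 0, 2 and 0 in control libraries. After scaling to effective library size every IPC library was above every control, though IPC replicate 3 was close to control replicate 2, at 11.1 against 9.31 CPM. Scaled instead to the total counts of the shallowest library, 111048, IPC replicate 3 lay below control replicate 2, at 1.39 against 1.46 counts. The summed counts, 90 after IPC and 2 in controls, gave a ratio of 11.0 (exact 95% interval 2.97 to 92.5). Levels scaled to effective library size gave p = 0.1 in an exact two-sided permutation test, the smallest p that 3 against 3 libraries allow. In limma without the abundance filter its log2 fold change was 2.65 (SE 0.98, 95% interval 0.71 to 4.59) at an unadjusted p = 0.00779, below 0.05 as for 10.8% of the 480 miRNAs in that fit, and at an adjusted p = 0.216.

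The share of the 5p arm among miR-434 reads was 30.1%, 35.7% and 12.5% in IPC libraries, of 186, 84 and 32 reads. Over the pooled controls it was 2 of 22 reads, or 9.09% (exact 95% interval 1.12% to 29.2%), against 90 of 302 reads or 29.8% (24.7% to 35.3%) over the pooled IPC libraries. These intervals overlap, but they pool reads over libraries and leave out the spread between libraries. IPC replicate 3, at 12.5%, lay below control replicate 2, at 25%. With 2, 8 and 12 reads in control libraries, a change in arm use could not be judged at this depth.

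miR-136-3p, also antisense to Rtl1, had 18, 8 and 6 counts in IPC libraries, against 0 in each control. With 3 counts as the limit that 0 over the whole control group allows, the scaled ratio was at least 2.61, taking the IPC counts as exact. The exact 95% interval of the ratio, computed as for miR-434-5p, starts lower, at 2.01. Both values pool reads over libraries and leave out the spread between libraries. Thinned in proportion to the depth of the shallowest library, 111048 counts, the IPC counts would be 2.62, 1.34 and 2.09, so the result rests on very few reads per library. Scaled levels again gave p = 0.1 in the exact two-sided permutation test, the smallest possible. In limma without the abundance filter its log2 fold change was 2.49 (SE 0.83, 95% interval 0.86 to 4.12) at an unadjusted p = 0.00304 and an adjusted p = 0.162, with the same 10.8% of miRNAs below 0.05. Since every control value was 0, the controls added no spread of their own to this fit. The size of the fold change also depends on the pseudocount. The other arm of the same hairpin, miR-136-5p, had 6, 4 and 3 counts in IPC libraries, against 0, 2 and 0 in control libraries, so reads of this hairpin were found in control replicate 2.

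After scaling to effective library size, IPC libraries lay above all controls for 2 of the 10 members, miR-434-5p and miR-136-3p. For miR-434-5p this did not hold when scaled to total counts. Both of these members were below the filter, where the same split held for 7.87% of the 254 miRNAs with a count. Some of these 254 had too few counts to be found in every IPC library, so the split could not occur for them. The 7.87% is thus not matched to the abundance of these members. Among the 7 tested members the split held for 0, against 12.4% of the 226 tested miRNAs. No tested member had all IPC libraries below all controls, against 1.33% of the tested miRNAs. In the authors' deposited table, the unadjusted p was below 0.05 for these same 2 members of 10, at 0.00629 for miR-434-5p and 0.0146 for miR-136-3p, against 8.33% of the 480 miRNAs with a count. The authors' deposited table gives the other 8 an unadjusted p from 0.2 upward, with a log2 fold change of 1.17 for miR-434-3p and 0.91 for miR-382-5p.

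On the miR-379 side, miR-379-5p comes from the hairpin that opens the cluster. It was at 16.5, 8.18 and 13.3 normalised counts in IPC libraries, against 6.81, 22.1 and 2.91 in control libraries. The controls held both the highest and the lowest library, and the log2 fold change was 0.57 (SE 0.87; limma, adjusted p = 0.783); it was -0.024 without control replicate 3 and 1.26 without control replicate 2. Its neighbour miR-411-5p lay below the filter, with 1, 2 and 2 counts in IPC libraries, against 2, 0 and 0 in control libraries. The scaled ratio of its summed counts was 0.613 (exact 95% interval 0.100 to 6.44), so neither a rise nor a fall could be read at this depth.

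miR-382-5p was at 25.4, 19.6 and 16.2 normalised counts in IPC libraries, against 3.97, 22.1 and 5.11 in control libraries. As with miR-379-5p, control replicate 2 lay among or above the IPC libraries while the other controls were lower. Its log2 fold change of 1.25 (SE 0.81, 95% interval -0.53 to 3.03) did not pass (limma, unadjusted p = 0.152, adjusted p = 0.537). Without control replicate 2 it was 1.94, at an unadjusted p = 0.0215 that 35% of tested miRNAs matched in being below 0.05, and an adjusted p = 0.0754.

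miR-134-5p, which in rat neurons represses the Limk1 mRNA and limits the size of dendritic spines, was the steadiest member. It was at 57.8, 49.0 and 46.6 normalised counts in IPC libraries, against 55.3, 64.3 and 52.7 in control libraries. Highest and lowest library differed 1.38-fold on this scale. The residual SD of miR-134-5p on the log2 scale of these values, 0.15, was the smallest of all 226 tested miRNAs, whose median was 0.92. Scaled to total counts alone, at 111048 per library, control replicate 2 stood apart at 37.9 counts. The other controls were then at 18 and 19.7, and the IPC libraries at 22.6, 19.6 and 21.9. The log2 fold change was -0.17, with an empirical Bayes SE of 0.62 and a 95% interval of -1.52 to 1.19 (limma, adjusted p = 0.956); it was negative under all 14 alternative settings. Counting error bounds how closely the levels can be called equal: control replicate 1 held 18 counts, or 207 CPM with an exact 95% Poisson interval of 123 to 327. That interval is wider than the range over all libraries, 176 to 242 CPM, so the steadiness is not resolved beyond counting error.

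miR-541-5p was at 14.5, 15.1 and 10.3 normalised counts in IPC libraries, against 4.07, 21.0 and 18.1 in control libraries. Both the highest and the lowest of these were controls, and the low one, control replicate 1, rested on 1 count. The log2 fold change was 0.14 (SE 0.81; limma, adjusted p = 0.956) and -0.54 without that library. Its sign also turned with the scale: mean normalised values were 13.3 ± 2.62 in IPC libraries and 14.4 ± 9.05 in control libraries (SD, n = 3 each), and the scaled ratio of summed counts was 0.839 (exact 95% interval 0.537 to 1.35). miR-409a-3p, close to the end of the cluster, was at 12.4, 9.57 and 8.09 normalised counts after IPC and at 12.3, 14.8 and 7.29 in controls. These ranges overlapped widely, with a log2 fold change of -0.15 (SE 0.75; limma, adjusted p = 0.956) and 0.050 without control replicate 2.

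**Figure D2:**
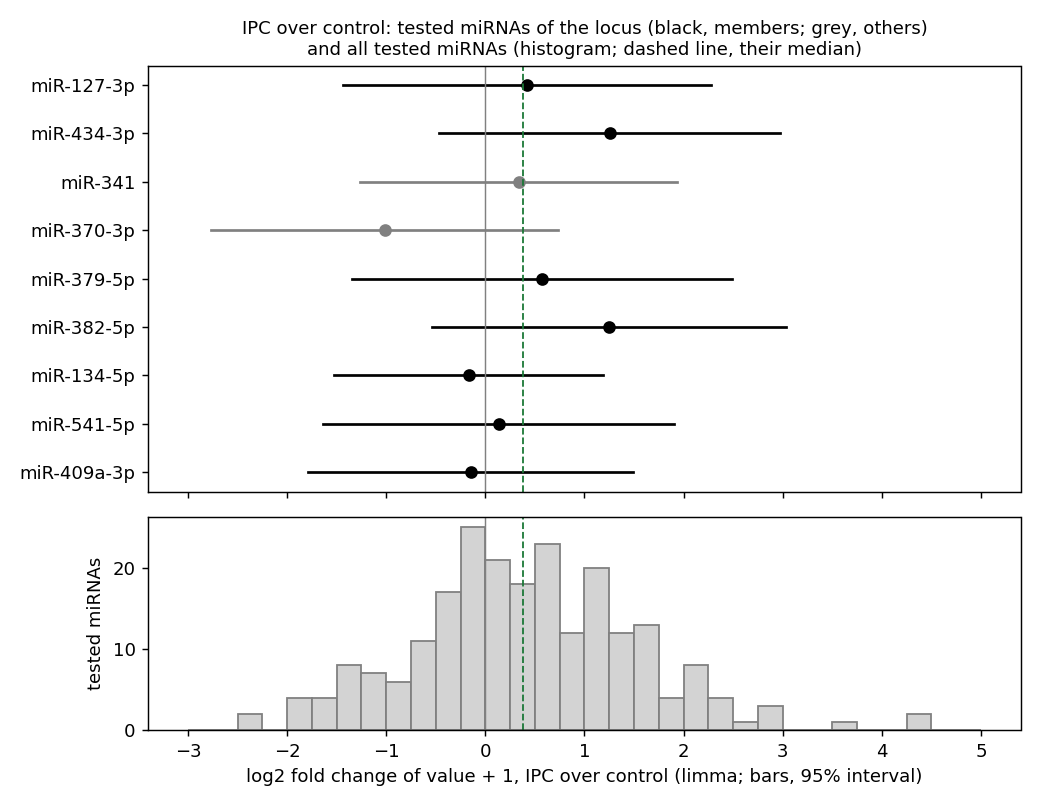
Log2 fold change of IPC over control on the log2(value + 1) scale for the 9 tested miRNAs of the locus, from Dlk1 (top) to Dio3 (bottom), with 95% limma intervals, above a histogram of all 226 tested miRNAs. The dashed line is the median of all tested miRNAs, 0.38, and each of the 9 intervals includes both 0 and that median.

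The locus was then followed beyond the members. Of its measured mature miRNAs, 103 could be matched to a hairpin between Dlk1 and Dio3, 100 by the RefSeq sequence table and 3 by the hairpin's symbol. Reads were found for 60 of the 103, from 44 of the 59 hairpins, and 43 had no count in any library. The 10 members held 1650 of the 2237 counts of the locus (73.8%). Of the 93 other miRNAs, 50 had a count, and 36 of these had at most 10 counts in all 6 libraries together. Reads came almost wholly from the strand of the members: 57 of 90 plus-strand miRNAs had a count, against 3 of 12 on the minus strand; no strand was assigned to the 1 other, which had no count. One of these 3, miR-299b-3p, is identical to the first 17 bases of the plus-strand miR-299a-3p, and with 26 and 23 counts their reads cannot be told apart.

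**Figure D3:**
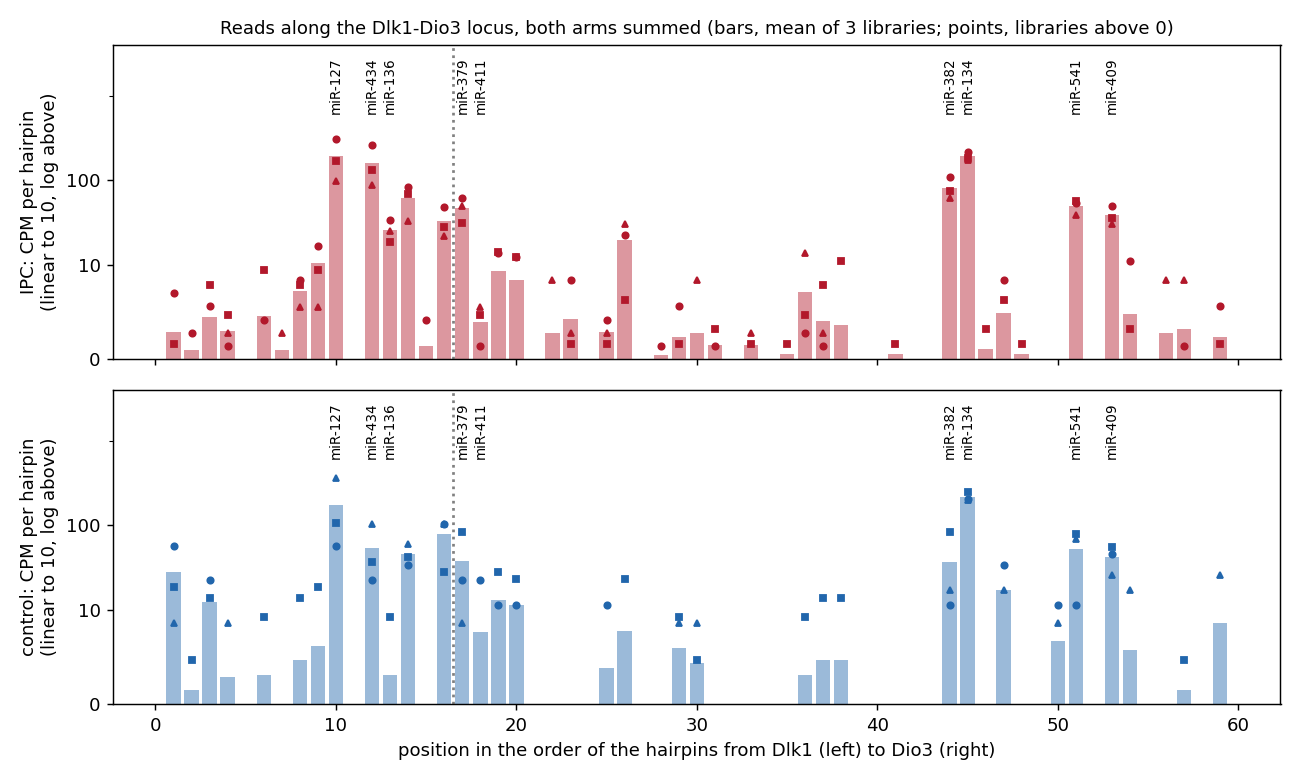
CPM (counts scaled to effective library size) for each of the 59 hairpins in their order from Dlk1 to Dio3, both arms summed, in IPC (top) and control (bottom) libraries; bars are means of 3 libraries, points are libraries above 0 (circle, square and triangle for replicates 1, 2 and 3), and the dotted line divides the Rtl1 side from the miR-379 side. In both groups the reads gather at miR-127 to miR-379 and again at miR-382 to miR-409a, with few or no reads between places 27 and 43.

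The number of locus miRNAs with a count was 42, 43 and 28 in IPC libraries, against 18, 29 and 18 in control libraries. Thinned to 111048 counts per library (mean of 100 draws), it was 24.0, 22.6 and 20.1 after IPC and 18.0, 27.1 and 17.1 in controls, so at one depth the groups overlapped. For the members, detection was 10 of 10 in each IPC library, and 8, 8 and 7 in control libraries. Over all 763 miRNAs of the table the same split was seen in these unthinned counts, with 372 to 419 detected in IPC libraries, against 284 to 351 in control libraries. At the common depth the members' number was 9.09, 8.99 and 9.30 after IPC and 8, 7.92 and 6.79 in controls. The number over all miRNAs was not computed at that depth, so this split cannot be set against a background. The members missing in controls were miR-136-3p in all 3, and miR-434-5p and miR-411-5p in 2 each.

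Besides the members, 2 miRNAs of the locus passed the filter, both between the Rtl1 gene and miR-379. miR-370-3p was at 13.3, 7.42 and 5.84 normalised counts in IPC libraries, against 27.1, 7.55 and 27.1 in control libraries. Its log2 fold change of -1.01 (SE 0.80, 95% interval -2.76 to 0.74) was the lowest of the 9 tested at the locus and did not pass (limma, adjusted p = 0.61). miR-341, which is annotated in rodents, was at 22.1, 18.5 and 8.78 normalised counts in IPC libraries, against 9.66, 11.2 and 15.8 in control libraries, a log2 fold change of 0.34 (SE 0.73; adjusted p = 0.868). Thus 0 of 9 tested miRNAs of the locus passed, with the background of 0% given above.

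The opposite arms of the member hairpins mostly left few or no reads. miR-379-3p and miR-541-3p had 0 counts in all libraries beside 103 and 115 counts of the listed arm, and miR-134-3p had 4 beside 428. miR-127-5p had 11, 17 and 0 counts in IPC libraries, against 1, 1 and 5 in control libraries, which is 8.10% of the reads of that hairpin. miR-382-3p had 10 counts, all in IPC replicate 1, where miR-382-5p had 68, and miR-409a-5p had 3 counts, also all in IPC replicate 1. miR-411-3p had 1 count, in IPC replicate 2. miR-434 and miR-136 were the exceptions, with both arms read, at 28.4% for miR-434-5p and 31.9% for miR-136-5p over all 6 libraries.

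The balance between the sides of the locus varied from library to library. The 4 members of the Rtl1 side made up 54.8%, 42.8% and 36.0% of the members' counts in IPC libraries, against 17.6%, 20.4% and 57.0% in control libraries. The exact 95% binomial intervals were 51.2% to 58.4%, 38.0% to 47.6% and 29.4% to 43.0% in IPC libraries, against 6.76% to 34.5%, 14.2% to 27.8% and 45.8% to 67.6% in control libraries. Libraries of one group thus differed by more than counting error, and control replicate 3 lay above all IPC libraries while the other controls lay below them. The group means were 44.5% ± 9.53 in IPC libraries and 31.7% ± 22.0 in control libraries (SD, n = 3 each), a difference smaller than the control SD. The ratio of miR-127-3p to miR-134-5p counts shows the same: it was 1.34, 0.778 and 0.556 in IPC libraries, against 0.222, 0.423 and 1.61 in control libraries.

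**Figure D4:**
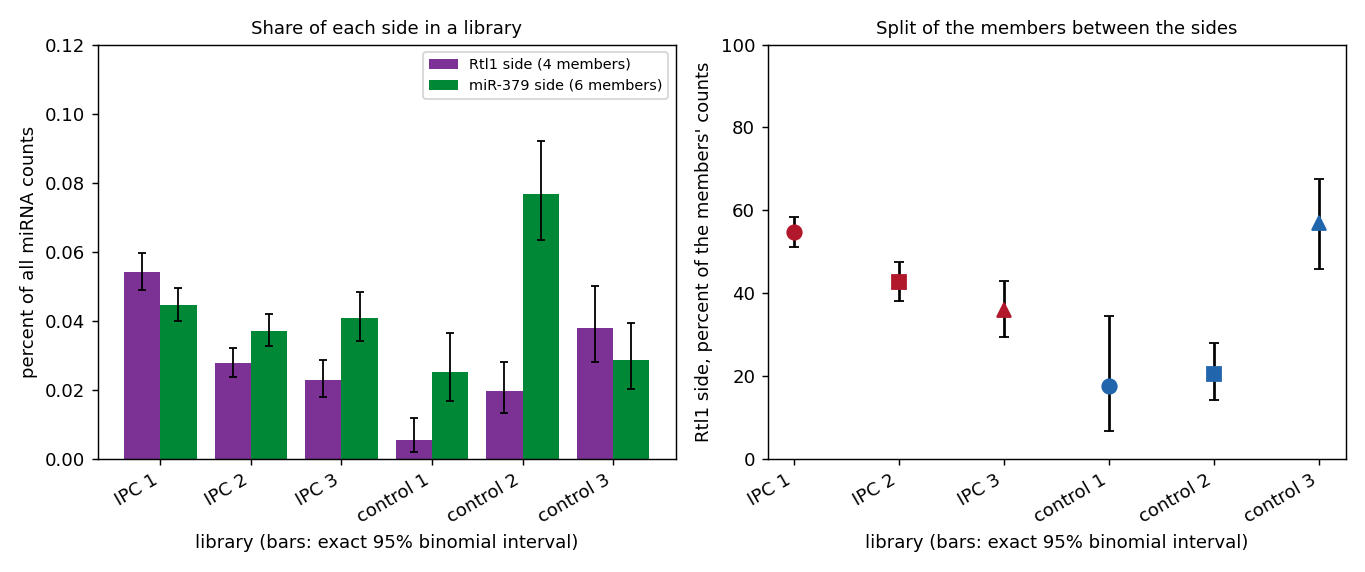
Left, share of all miRNA counts taken by the 4 members of the Rtl1 side and the 6 members of the miR-379 side in each library; right, the Rtl1 side as a percentage of the members' counts; error bars are exact 95% binomial intervals. Control replicate 2 has the highest miR-379-side share, 0.0768%, and control replicate 3 the highest Rtl1-side percentage, 57.0%.

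As a share of all miRNA counts, the miR-379 side was at 0.0446%, 0.0370% and 0.0407% in IPC libraries, against 0.0252%, 0.0768% and 0.0285% in control libraries. The IPC libraries lay close together, between control replicate 2 and the other controls. The Rtl1 side was at 0.0540%, 0.0277% and 0.0229% in IPC libraries, against 0.00540%, 0.0197% and 0.0378% in control libraries, with control replicate 3 inside the IPC range. The library that was high among controls therefore differed between the sides.

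Levels of the tested members followed each other only in part. Over the 6 libraries, Pearson's r of log2(value + 1) was positive for 15 of the 21 pairs, with a median of 0.24, where the median over all pairs of tested miRNAs was 0.064. The pairs share libraries and depth, and these values are a description. The highest r, 0.84, was that of miR-127-3p and miR-434-3p, which lie close together on the Rtl1 side. Next were miR-134-5p with miR-409a-3p at 0.82 and miR-379-5p with miR-382-5p at 0.80, all on the miR-379 side. The pairs did not sort by side throughout, as miR-127-3p and miR-541-5p, of different sides, had an r of 0.70. On the miR-379 side, the neighbours miR-382-5p and miR-134-5p had 0.14, and miR-541-5p with miR-409a-3p had -0.081. The lowest r was -0.46, between miR-434-3p and miR-409a-3p of different sides.

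Outside the locus, the tested miRNAs whose profile over the 6 libraries was most like the mean log2(value + 1) of the 7 tested members were miR-29b-3p (Pearson's r = 0.96), miR-224-5p (0.89), miR-29c-3p (0.79) and miR-126a-5p (0.78). miR-29b-3p, whose family targets collagen mRNAs, had 120, 24 and 24 counts in IPC libraries, against 0, 21 and 3 in control libraries. These were the 4 highest of 217 miRNAs compared on 6 points that share depth.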

How the data were processed

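Small RNA libraries were made from Trizol-extracted RNA with an NEBNext kit and sequenced as single-end reads, per the labels' protocols. FastQC, BWA, edgeR and build rn6 are named in the submitters' processing notes, without roles. Trimming and annotation release were not given in the sources used here. The deposited table holds a normalised signal for 6 libraries and, from the authors, a log2 fold change with its p-value (not adjusted), per the file headers. The signal looks like counts that a quantile adjustment moved onto one library size, 265919, with dispersion 0.503; this was worked out from the values. Inverting that adjustment within each group gave whole counts (within 0.01) for 4578 of 4578 deposited values. The inversion was also tested on simulated data.

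Because the deposited values are not counts, limma 3.58.1 (R 4.3.3; trended, robust) was run on log2(value + 1), with group as the only term, over all 226 miRNAs passing the filter; Benjamini-Hochberg adjusted p below 0.05 was the threshold. limma was tested on simulated counts. Scaling to effective library size used the ratios recovered with the counts. Intervals are exact for counts, shares and count ratios, and limma's own for log2 fold changes. Sequences and hairpin order came from RefSeq tables of GRCr8, a build other than rn6, so no coordinates are given. Named miRNAs were the members, their opposite arms, other tested miRNAs of the locus and the 4 most alike outside it. Of the other lists, red cell miRNAs took 4.93% to 5.81% of counts in IPC libraries and 4.09% to 7.77% in controls, neural ones 2.05% to 6.40% and 1.72% to 5.09%, and endothelial ones 0.0632% to 0.309% and 0.0819% to 0.314%. The neural share rested on miR-128-3p, at mean normalised values of 10058.8 after IPC and 10708.5 in controls. Listed beside it, miR-129-5p was at 25.1 and 39.2, and 2 to 4 of the 5 neural miRNAs had a count in a library. The members and lists were chosen with earlier results of these data known. Alternatives covered the pseudocount, filter, scaling, model, replicate block and leaving out each library.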

Additional observations from a re-analysis of the deposited data

How the results depend on the processing

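None of the 7 tested members passed an adjusted p of 0.05 in limma under any of the 14 alternatives (smallest 0.0754, miR-382-5p without control replicate 2), also with each library left out (0 to 0); under the stricter filter only miR-127-3p and miR-134-5p were tested. Of 93 refitted member values, 88 kept their direction; the exceptions all left out a library. With a library left out, miR-127-3p ran from -0.17 to 1.11 (-0.0061 without IPC replicate 1), miR-379-5p from -0.024 to 1.26, miR-541-5p from -0.54 to 0.52 and miR-409a-3p from -0.42 to 0.050. Over all miRNAs, calls numbered 3 without the abundance filter, 2 with the replicate block, and 0 to 38 with a library left out. The replicate numbers are not said to mark shared animals or days, so they were not taken as pairs. Deviations from group means had r = 0.13, -0.18 and -0.51 between equally numbered libraries. Between unequally numbered ones r ran from -0.42 to 0.64. With 3 libraries per group these values cannot show whether libraries were paired. The block changed no member's call. The paired differences, 0.0112 percentage points for the members' share and 2.33 for members detected, equal the unpaired ones by arithmetic. Median-of-ratios scaling moved the median of all tested miRNAs by -0.19 and turned no member's sign. The share difference ran from -0.00577 to 0.0272 percentage points with a library left out, and was 0.00444 over the whole locus. The difference in members detected per library, 2.33, was 4 when at least 3 counts were asked for, 1.56 at the common depth, and 2 to 2.5 with a library left out. The values of 2.33 and 4 were taken at each library's own depth, which favours the deeper IPC libraries. For the value of 4, no share over all miRNAs was computed. Depth limits miR-434-5p, miR-136-3p and miR-411-5p most, with 2, 0 and 2 counts over all controls.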
